A study of Mus musculus with 4 samples.

Results

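H3K27ac, an acetyl mark of histone H3 found at active promoters and enhancers, was examined at 10 of the 21887 protein-coding genes with a position in the RefSeq gene table of GRCm38.p6. They were taken by name, with earlier results of these data known. They are the phosphatase genes *Dusp1*, *Dusp4*, *Dusp5*, and *Dusp6*, the Sprouty genes *Spry1*, *Spry2*, and *Spry4*, the Sprouty-related genes *Spred1* and *Spred2*, and *Rasip1*. For each of them, the gene body and 10 kb on each side were searched for peaks.

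Growth factors such as VEGF and FGF activate ERK in endothelial cells through receptor tyrosine kinases, RAS, and a cascade of kinases. ERK signaling in turn induces many of its own inhibitors, which shorten or dampen the signal. The DUSP phosphatases remove the activating phosphates from ERK and related kinases, whereas Sprouty and SPRED proteins act upstream, close to the receptor and RAS. RASIP1 differs from the others in that it is an endothelial effector of the small GTPase RAP1, needed for vascular lumens and junctions, and not a classic inhibitor of ERK.

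ChIP-Seq of H3K27ac was available for 2 libraries of mouse liver sinusoidal endothelial cells (LSECs), whose labels carry the numbers 2 and 3 and which are named replicate 2 and replicate 3 accordingly. The labels give no genotype, strain, sex, age, or treatment of the mice, and nothing states that the libraries came from separate animals. The study's methods name 3 mouse lines as sources of LSECs, *Col4a1*fl/wt with or without *Cdh5*CreERT2 and *dCas9-KRAB* with *Cdh5*CreERT2, and do not say which of them gave these libraries. In the same methods, LSECs were in general purified with beads against CD146 and plated briefly on collagen-coated dishes. The account of the ChIP-Seq names isolation and cross-linking only, so it is unknown whether the cells of these libraries were plated. The study's results name the assay as ChIP-Seq with tagmentation-assisted fragmentation, whereas the labels describe sonication and a ligation kit. Both libraries were treated as 1 condition, so no conditions were compared and no test was made. The peak list of replicate 2 held 26975 peaks and that of replicate 3 held 64498. Because the read depth behind either list is unknown, a missing replicate 2 peak cannot be read as missing acetylation.

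Peaks of the libraries that overlapped by at least 1 bp were joined into a region and called shared. The fold enrichment of a region is the authors' ratio of signal to background at its strongest peak in each library, where it is unknown if the input libraries served as that background. A gene-end region had overlapping peaks of both libraries within 1 kb of the same end of the gene, and a distal region had no peak that close to either end.

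The labelled cell type was checked against marker genes. Of 17 LSEC and endothelial markers, 12 had a shared gene-end peak, and *Kdr*, *Erg*, and *Cdh5* had the most shared regions, with 12, 11, and 9. *Erg* was the 1 endothelial marker with no peak at a gene end in either library. Shared gene-end peaks were found at 1 of 10 hepatocyte markers, 0 of 10 hepatic stellate cell markers, 1 of 8 Kupffer cell markers, 0 of 5 cholangiocyte markers, and 1 of 6 lymphocyte markers. The exceptions were *Trf*, *Spi1*, and *Cd79a*. At its gene end, *Trf* had 15.9-fold enrichment in replicate 2 and 78.8-fold in replicate 3. *Kdr*, the highest endothelial marker in both libraries, had 22.4 and 60.3. Replicate 3 alone had a gene-end peak at 4 endothelial, 2 hepatocyte, 1 stellate cell, 0 Kupffer cell, 1 cholangiocyte, and 1 lymphocyte markers. *Hnf4a* and *Trf* with 2 shared regions each and *Alb* with 1 led the hepatocyte list, and *Alb*, *Ttr*, *Cps1*, *Cyp3a11*, *Serpina1a*, and *Hnf4a* were among its 7 genes without a gene-end peak. *Pdgfra*, *Pdgfrb*, *Lrat*, *Reln*, *Des*, and *Dcn* were among 9 such stellate cell genes, *Clec4f*, *Adgre1*, *Cd5l*, *Vsig4*, *Marco*, and *Timd4* among 7 such Kupffer cell genes, *Krt19*, *Krt7*, *Sox9*, and *Spp1* were the 4 in cholangiocytes, and *Cd3e*, *Ms4a1*, and *Cd2* were among the 4 in lymphocytes. The other genes with shared regions in these lists were *Pdgfra* with 2, *Csf1r* and *Spi1* with 1 each, *Cd79a* with 3, and *Cd2* with 1.

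H3K27ac was found at every one of the 10 genes in both libraries, at a gene end for most of them and at distal regions inside or near all of them. For *Spry1* this rests on 1 shared region, which was lost with 50% reciprocal overlap. It was also lost when the same number of strongest peaks was kept in each library. A shared gene-end peak was present at 8 of 10 genes, against 43.4% of all protein-coding genes. The exceptions were *Spry1* and *Rasip1*, which had a gene-end peak in replicate 3 only. A shared distal region was present at 10 of 10 genes, against 39.3% of all protein-coding genes. For the 8 genes whose 5′ end was known from the promoter table, both libraries had overlapping peaks within 1 kb of it at 6, against 42.7% of 17492 protein-coding genes with such an entry. The entries for *Dusp4* and *Spry4* were missing. When each peak had to overlap at least 50% of the other, 2 of the 10 genes had a shared gene-end peak. This was against 22.0% of all protein-coding genes, so the count was then no higher than the background. A narrow peak inside a much wider one fails this rule. With the same rule, 8 of the 10 had a shared distal region, against 25.2%. Within the gene bodies alone, 6 of the 10 had a shared distal region, against 19.4%.

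Replicate 2 had 44 peaks and replicate 3 had 90 in the 10 windows, which formed 90 regions. Of these regions, 32 were shared, 58 had a peak in replicate 3 only, and 0 had a peak in replicate 2 only. The shared regions divided into 12 at gene ends, 18 distal, and 2 that came within 1 kb of an end in replicate 3 only. Of the 18 distal regions, 10 touched the gene body and 8 lay outside it. The median gene of the group had 3 shared regions, against 1 over all protein-coding genes. Peaks of both libraries covered a median of 4.82% of its window, against 0.578% over all protein-coding genes, and each of the 10 genes was above that value. The median length of the 10 genes was 11920 bp, against 17170 bp over all protein-coding genes, and only *Spred1* and *Spred2* were longer than the latter. Because the covered share is taken of the window, it also depends on gene length.

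**Figure D1:**
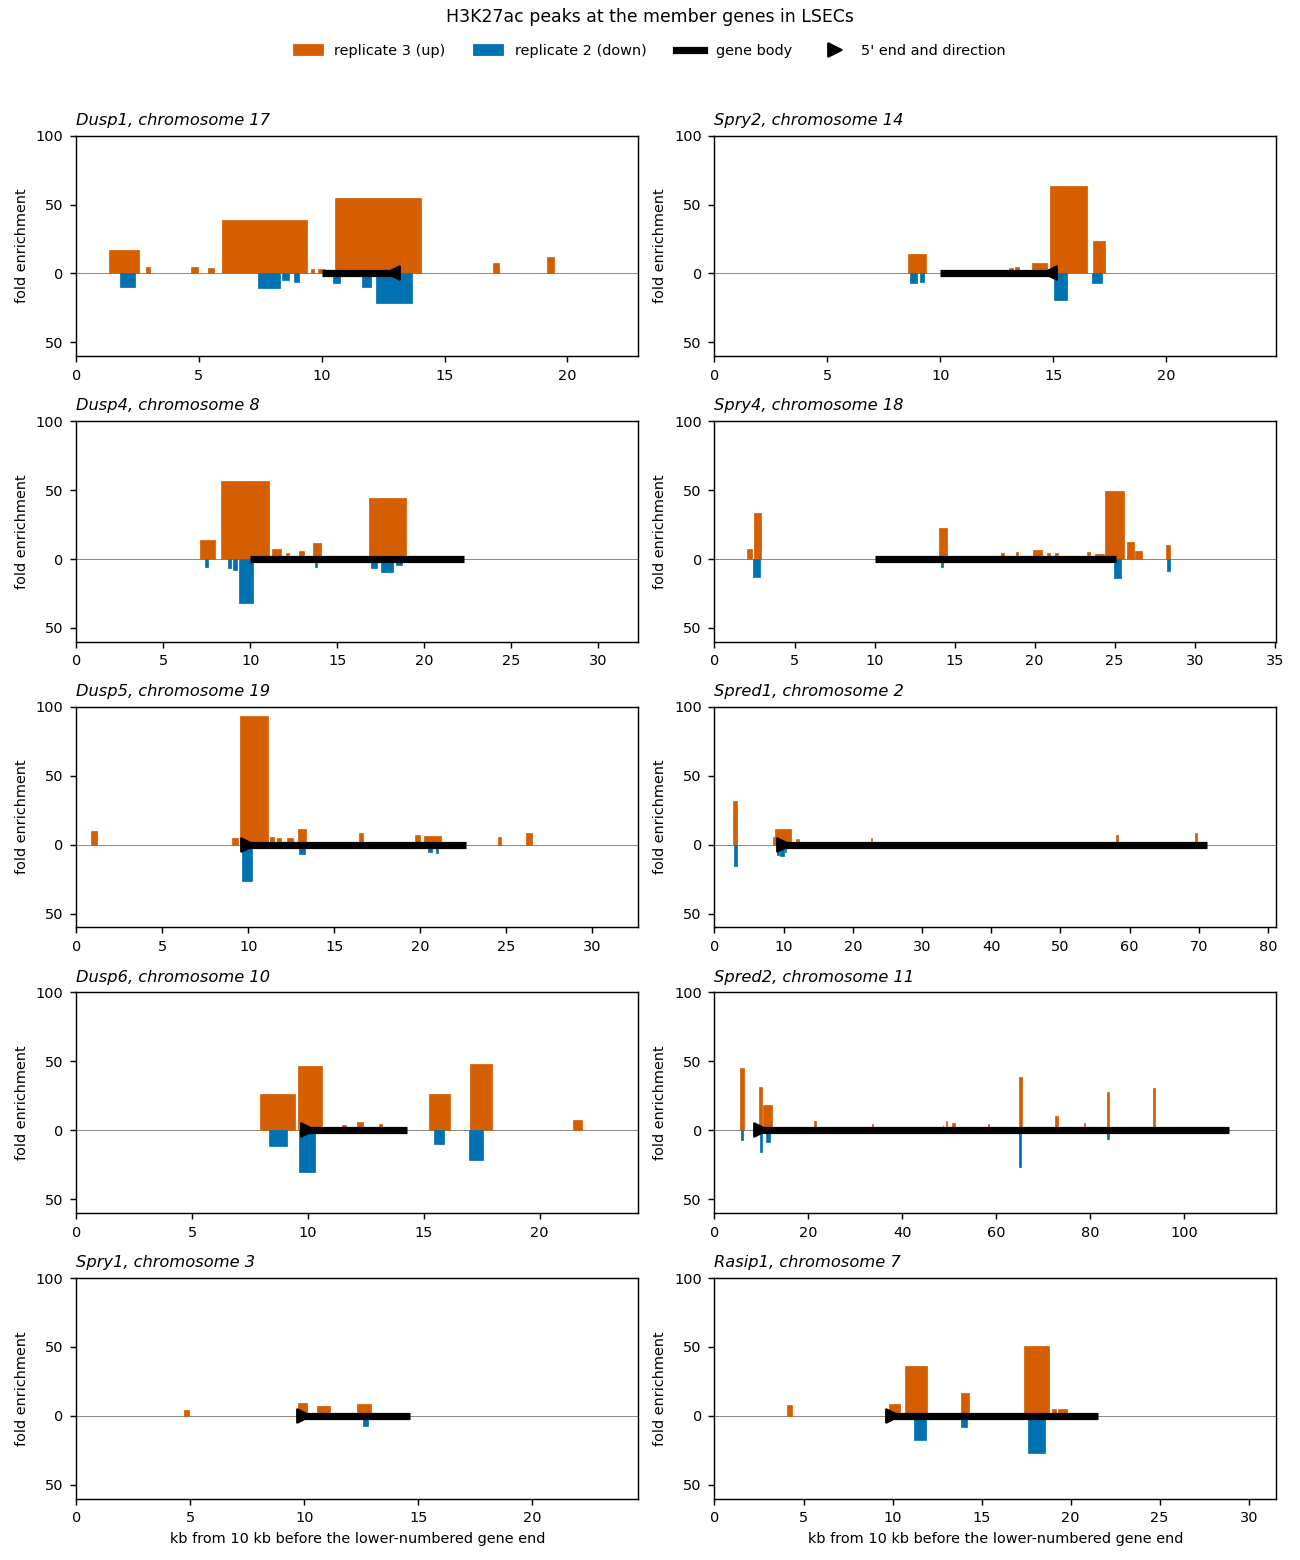
H3K27ac peaks of replicate 3 (upward bars) and replicate 2 (downward bars) at each of the 10 genes, with fold enrichment on the vertical axis and position in kb on the horizontal axis, which starts 10 kb before the lower-numbered gene end. The black line is the gene body and the arrowhead marks the 5′ end where it was known. The tallest bar is the *Dusp5* promoter peak of replicate 3, at 93.1, and *Spry1* has no bar above 9.44.

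The genes of the nuclear phosphatases, *Dusp1*, *Dusp4*, and *Dusp5*, and of the cytoplasmic *Dusp6* carried gene-end peaks that were, in each library, above the median of all genes with such a peak. At *Dusp1* and *Dusp4* they were broad in replicate 3, and at *Dusp5* tall and narrower. *Dusp1* encodes an immediate early phosphatase that acts on p38, JNK, and ERK. Its body is 2882 bp long, and most of it lay within a single region at chr17:26506063-26509637, where fold enrichment was 21.5 in replicate 2 and 54.9 in replicate 3. The replicate 3 peak of that region was 3523 bp wide, at percentile 99.9 of all replicate 3 widths, and replicate 2 had 3 separate peaks beneath it. A similarly wide region of 3478 bp followed beyond the 3′ end at chr17:26501525-26505002, with values of 10.8 and 38.5. This region also lies within 1 kb of an end of the noncoding gene *Gm34455*, so its assignment to *Dusp1* is shared. A distal region at chr17:26496913-26498145 had values of 9.53 and 17.1. Peaks of both libraries covered 17.8% of the *Dusp1* window, the largest share among the 10 genes and at percentile 99.9 of all protein-coding genes.

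*Dusp4*, an inducible nuclear phosphatase related to *Dusp1*, had its strongest region at the lower-numbered end, chr8:34805904-34808707, with 31.8-fold enrichment in replicate 2 and 56.6-fold in replicate 3. The replicate 3 peak was 2804 bp wide, and replicate 2 had 3 separate peaks beneath it, the strongest 811 bp wide. The replicate 2 value was the highest among the shared regions of the 10 genes. Inside the gene, a distal region of 2156 bp at chr8:34814414-34816569 had values of 9.70 and 44.6. Its fold enrichment came close to the 56.6 of the gene-end region in replicate 3, but not to the 31.8 in replicate 2. The remaining shared regions of *Dusp4* were weaker. Inside the gene, chr8:34811229-34811648 had values of 6.10 and 11.7, and outside it, chr8:34804725-34805583 had 5.89 and 13.7. In all, 9.09% of the *Dusp4* window was covered by both libraries. With a reciprocal overlap of 50%, *Dusp4* had 0 shared regions in place of 4.

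*Dusp5* encodes a nuclear phosphatase that is selective for ERK. Its promoter region, chr19:53528673-53530286, had 26.4-fold enrichment in replicate 2 and 93.1-fold in replicate 3, the latter the highest value at any of the 10 genes. The summits of the libraries lay at −116 and −112 bp from the 5′ end, 4 bp apart. Compared with all genes that had a gene-end peak, the strongest *Dusp5* value was at percentile 79.2 in replicate 2 and 89.9 in replicate 3. Acetylation in the rest of the gene was low by comparison. The shared internal regions at chr19:53532055-53532484 and chr19:53539349-53540333 had replicate 2 values of 6.71 and 6.10 and replicate 3 values of 11.4 and 6.22. Another 9 regions of the *Dusp5* window were found in replicate 3 only.

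*Dusp6* encodes the cytoplasmic phosphatase of the group, which is selective for ERK and is a well-known readout of FGF signaling. Its gene is short, and shared regions lay on both sides of it. The promoter region, chr10:99262807-99263856, had 30.5-fold enrichment in replicate 2 and 46.4-fold in replicate 3, with summits at −38 and −44 bp, at percentiles 86.0 and 58.4 of genes with a gene-end peak. A separate region upstream, chr10:99261158-99262678, had values of 11.5 and 26.1. Past the 3′ end, chr10:99268475-99269350 had values of 10.2 and 26.3 and was within 1 kb of the end in replicate 3 only, at 986 bp against 1165 bp in replicate 2. Farther downstream, a distal region at chr10:99270173-99271193 had values of 21.7 and 47.8, so in replicate 3 it slightly exceeded the promoter. It lies within 1 kb of an end of the noncoding gene *Gm34921*, which overlaps *Dusp6*.

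The Sprouty genes, whose products restrain receptor tyrosine kinase signaling at the membrane, were not marked alike. *Spry2* and *Spry4* had gene-end peaks in both libraries, whereas *Spry1* had them in replicate 3 only. Among genes with a gene-end peak, *Spry2* was at percentile 59.5 in replicate 2 and 73.3 in replicate 3, and *Spry4* at 39.8 and 61.3, below the median in replicate 2. The *Spry2* promoter region, chr14:105896781-105898425, had 19.0-fold enrichment in replicate 2 and 63.2-fold in replicate 3. Its summits lay at −550 and −532 bp, farther upstream than those of *Dusp1*, *Dusp5*, and *Dusp6*. The region at the 3′ end of *Spry2*, chr14:105890530-105891294, had values of 7.03 and 14.2, and a distal region upstream, chr14:105898660-105899232, had 6.78 and 23.6.

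At *Spry4*, the region at the higher-numbered end, chr18:38600630-38601801, had 13.6-fold enrichment in replicate 2 and 49.7-fold in replicate 3. An end of the coding gene *Arhgap26* lies 270 bp from that of *Spry4* and inside the region, so the peak cannot be assigned to either gene alone. A distal region beyond the other end, chr18:38578652-38579140, had values of 12.9 and 33.5 and lay within 1 kb of no other annotated gene end. The region inside the gene, chr18:38590262-38590766, had values of 5.49 and 22.9, and its summits were 1 bp apart. The fourth shared region, chr18:38604433-38604717, had 8.81 and 10.3 and lies in the body of *Arhgap26*. With 4 shared regions and 10 in replicate 3 only, *Spry4* had a covered share of 3.35%, at percentile 89.0 of all protein-coding genes.

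*Spry1* had a single shared region, chr3:37642282-37642863 inside the gene, with 7.62-fold enrichment in replicate 2 and 8.60-fold in replicate 3. Its 5′ end had a peak in replicate 3 only, at 9.44, and a second replicate 3 peak within 1 kb of it had 7.38. The 5′ value was at percentile 11.4 among genes with a gene-end peak in replicate 3. Peaks of both libraries covered 0.783% of the window, the smallest share of the 10 genes. Of the 5125 replicate 3 peaks whose enrichment was within 10% of that at the *Spry1* 5′ end, 19.9% overlapped a replicate 2 peak, so most peaks of this strength were without one. *Spry1* had 0 shared regions when the same number of strongest peaks was kept in each library, and also where each peak had to overlap 50% or more of the other.

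The SPRED proteins bring neurofibromin to the membrane, where it inactivates RAS. Their genes were the longest of the group, *Spred1* at 61209 bp and *Spred2* at 99585 bp, and most of their length was without shared peaks. The *Spred1* promoter region, chr2:117119884-117122201, was low, with 8.54-fold enrichment in replicate 2 and 11.0-fold in replicate 3, at percentiles 16.4 and 14.1 of genes with a gene-end peak. Its replicate 3 peak was 2318 bp wide, at percentile 99.4 of widths, whereas replicate 2 had 3 separate peaks there, the strongest 604 bp wide. The summits of the strongest peaks at this promoter, at −283 and −974 bp, were 691 bp apart, the widest gap among the 32 shared regions, whose median gap was 30 bp. A distal region upstream of *Spred1*, chr2:117113737-117114317, was stronger than the promoter in both libraries, at 15.3 and 31.6.

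*Spred2* had 5 shared regions, the most of the 10 genes. Its promoter region, chr11:19923928-19924639, had 15.9-fold enrichment in replicate 2 and 31.3-fold in replicate 3, below the median of genes with a gene-end peak in each library (percentiles 49.4 and 41.4). A wider region just inside the gene, chr11:19924756-19926603, had 8.81 and 18.1. The strongest *Spred2* value in replicate 2 was in the gene body at chr11:19979176-19979893, with 26.4 against 38.7 in replicate 3. The strongest in replicate 3 was upstream of the gene at chr11:19919898-19920738, with 44.9 against 6.86 in replicate 2. These regions thus ranked in opposite order in the libraries, and the ratio of 6.55 between the upstream values was the largest of the 32 shared regions. A further internal region, chr11:19997982-19998431, had values of 6.10 and 28.0. Replicate 3 alone had a strong internal peak at chr11:20007730-20008152, with a fold enrichment of 30.9. Of the 2364 replicate 3 peaks within 10% of that value, 97.8% overlapped a replicate 2 peak, so this peak was among few of its strength without one.

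*Rasip1* was marked inside its body more than at its 5′ end. The region at chr7:45634934-45636326 had 27.04-fold enrichment in replicate 2 and 50.4-fold in replicate 3, the highest of the 18 distal regions in both libraries. It is near an end of *A030001D20Rik*, a noncoding gene that overlaps *Rasip1*. Closer to the 5′ end, chr7:45628252-45629444 had values of 17.6 and 36.5, with summits 1480 and 1492 bp into the gene. The replicate 3 peak of that region came within 715 bp of the 5′ end and the replicate 2 peak within 1195 bp, so it counted as near the end in replicate 3 only. A weaker internal region, chr7:45631379-45631811, had 8.17 and 16.6. The 5′ end itself carried a replicate 3 peak of 8.85, and an end of *Izumo1* lies 295 bp from the gene. Of the 5566 replicate 3 peaks within 10% of that value, 16.5% overlapped a replicate 2 peak.

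**Figure D2:**
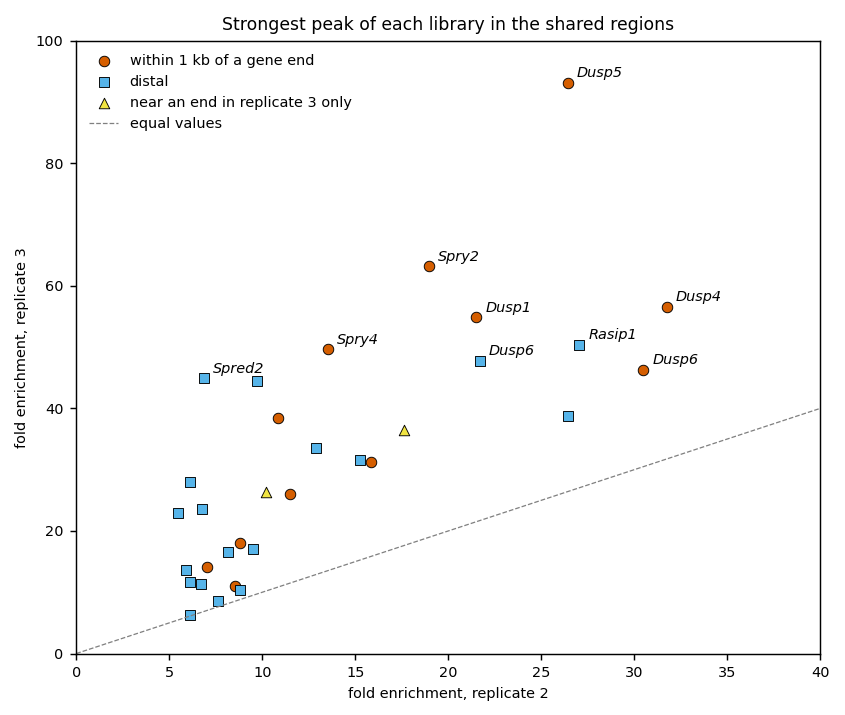
Fold enrichment of the strongest peak in replicate 2 (horizontal axis) and replicate 3 (vertical axis) for the 32 shared regions of the 10 genes, with symbols for regions within 1 kb of a gene end, distal regions, and regions near an end in replicate 3 only. The dashed line marks equal values, all 32 points lie above it, and the 9 regions highest in replicate 3 are named by gene.

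Gene-end regions were stronger than distal ones in both libraries. The 12 shared gene-end regions had a median of 14.7-fold in replicate 2 (range, 7.03 to 31.8) and 42.4 in replicate 3 (range, 11.0 to 93.1). The 18 distal regions had medians of 7.90 (range, 5.49 to 27.04) and 23.2 (range, 6.22 to 50.4), so the classes overlapped widely. Fold enrichment was higher in replicate 3 at all 32 shared regions, by a median ratio of 2.07, against 2.47 over all 24199 shared regions of the genome. As a percentile among all peaks of the same library, it was higher in replicate 3 at 28 of the 32, against 94.5% of all shared regions. Summits lay within 150 bp of each other in 29 of 32 regions, against 94.7% of all shared regions. The 58 regions with a peak in replicate 3 only had a median fold enrichment of 5.26, and 22 of them exceeded the weakest shared region, at 6.22.

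Other genes of the pathway were described from fixed lists. Of 30 genes between the receptors and ERK, 23 had a shared gene-end peak, led in shared regions by *Shc1* and *Ksr1*, and the receptors *Egfr*, *Fgfr2*, and *Fgfr4* and the scaffold *Ksr2* had no gene-end peak in either library. Of 20 ERK-responsive transcription factor and immediate early genes, 16 had one, led by *Elk3* with 13 shared regions, *Fosb* with 6, and *Junb* with 5, and *Egr2* lacked a gene-end peak in either library. Of 11 other DUSP, Sprouty, and SPRED genes, 7 had one, led by *Dusp7*, *Dusp16*, and *Dusp10*, and *Dusp9* and *Spry3* lacked one in either library. Of 9 RAP1 and RASIP1 partners, 8 had one, led by *Rapgef1*, *Heg1*, and *Rap1a*. The share of 8 in 10 among the genes described here was thus within the range of these lists. A shared distal region was present at 14 of the 30 genes between receptor and ERK and 16 of the 20 ERK-responsive genes. It was present at 7 of the 11 other DUSP, Sprouty, and SPRED genes and 6 of the 9 partners. Among the endothelial markers it was present at 16 of 17, beside 10 of the 10 genes described here. The median covered share of the window was 0.971% for the genes between receptor and ERK, 6.10% for the ERK-responsive genes, 1.81% for the other DUSP, Sprouty, and SPRED genes, and 1.21% for the RAP1 partners, beside 4.82% for the 10 genes.

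The promoter sequences of the 8 genes with an entry (RefSeq, GRCm38.p6, 300 bases around the 5′ end) were searched for 9 motifs on both strands. The ETS core was searched as CCGGAA and the AP-1 motif as TGANTCA. The CRE was searched as TGACGTCA, and its part TGACG, which it holds on both strands, was searched separately. The GC box was searched as GGGCGG, the E-box as CACGTG, the motif of GATA factors as AGATAA, and the TATA box by the letters TATAAA. The serum response element was searched by its consensus. Shares are given over the 17492 promoters of protein-coding genes, followed by those over all 27025 promoters. The GC box was present in 5 of the 8 promoters, against 46.3% and 35.9%, and TGACG in those of *Dusp1*, *Dusp5*, and *Spred2*, against 23.9% and 21.0%. The full CRE was present at *Dusp1* alone among the 8, against 2.34% and 1.88%, and so was the E-box, against 7.90% and 7.24%. The ETS core was present at *Spry2* alone, against 19.1% and 15.2%. The serum response element was present at *Dusp5* alone, against 1.54% and 1.57%, in a pair of directly adjacent matches at −82 to −73 and −72 to −63. Of all 27025 promoters, 5 had 2 or more matches, a count made after the pair was seen. The AP-1 letters were in 0 of the 8 promoters, against 7.08% and 7.93%, as were those of GATA factors, against 9.96% and 11.4%, and of the TATA box, against 13.3% and 14.2%. A match is a description of the sequence, not evidence of a bound site.

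The promoters of *Dusp1* and *Dusp5* are shown for their motifs, that of *Dusp6* as an acetylated promoter without any of them, and that of *Rasip1* as one with no replicate 2 peak. They are chr17:26508423-26508722 (minus strand), chr19:53528895-53529194 (plus strand), chr10:99262981-99263280 (plus strand), and chr7:45627287-45627586 (plus strand), written 5′ to 3′, with matches to any of the 9 motifs in capitals.
Dusp1: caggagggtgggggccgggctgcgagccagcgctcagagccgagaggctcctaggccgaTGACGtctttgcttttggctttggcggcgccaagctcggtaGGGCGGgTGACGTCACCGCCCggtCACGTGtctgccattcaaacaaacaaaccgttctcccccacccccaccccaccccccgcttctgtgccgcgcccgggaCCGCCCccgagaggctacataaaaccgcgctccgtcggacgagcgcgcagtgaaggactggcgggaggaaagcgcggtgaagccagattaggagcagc
Dusp5: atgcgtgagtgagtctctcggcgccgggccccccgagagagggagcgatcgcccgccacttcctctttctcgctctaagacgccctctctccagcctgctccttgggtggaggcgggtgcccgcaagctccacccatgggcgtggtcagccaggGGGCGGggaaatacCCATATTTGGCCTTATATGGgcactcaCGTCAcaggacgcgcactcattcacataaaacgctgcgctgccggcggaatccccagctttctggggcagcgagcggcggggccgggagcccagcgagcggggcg
Dusp6: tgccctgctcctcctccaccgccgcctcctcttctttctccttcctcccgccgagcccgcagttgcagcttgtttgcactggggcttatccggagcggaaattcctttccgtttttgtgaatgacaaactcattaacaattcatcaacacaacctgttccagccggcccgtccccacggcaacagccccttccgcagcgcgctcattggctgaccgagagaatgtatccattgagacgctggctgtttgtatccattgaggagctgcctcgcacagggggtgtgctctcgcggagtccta
Rasip1: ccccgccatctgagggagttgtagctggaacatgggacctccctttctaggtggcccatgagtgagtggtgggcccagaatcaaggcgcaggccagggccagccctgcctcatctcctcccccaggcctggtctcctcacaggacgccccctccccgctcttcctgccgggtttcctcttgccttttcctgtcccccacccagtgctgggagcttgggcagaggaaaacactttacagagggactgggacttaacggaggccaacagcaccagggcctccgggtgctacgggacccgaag
All 300 bases lay within peaks of both libraries at *Dusp1*, *Dusp5*, and *Dusp6*. At *Rasip1*, 0 bases were within a replicate 2 peak and 247 within the replicate 3 peak. The *Rasip1* sequence held 9 CpG dinucleotides, the lowest number among the 8 promoters, against 31 at *Dusp1*, 28 at *Dusp5*, 19 at *Dusp6*, and a median of 13 over the promoters of protein-coding genes. The *Spry1* promoter, also without a replicate 2 peak, held 29, so the promoters without one in replicate 2 were not alike in this respect.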

How the data were processed

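H3K27ac ChIP-Seq peaks of 2 LSEC libraries were analysed. The input libraries were not analysed here on their own. The submitters' processing notes name BWA 0.7.17, Picard 1.67, MACS2 2.0.10, bedtools 2.27.1, and the build mm10. The authors deposited 1 list of 10 columns per library, in which the fold enrichment is a ratio of signal to background, and the deposited p-value and q-value are given as −log10, with a score rescaled from the latter. The lists hold no read counts.

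Regions, classes, covered shares (bases in peaks of both libraries), and percentiles were computed with Python 3.11.15, numpy 2.4.6, and pandas 2.3.3, and plots with matplotlib 3.10.9. The assignment of peaks was tested on simulated data. Positions are counted from 1. The gene table holds no strand or exons, so introns were not separated from exons, and 5′ ends came from the promoter table. The members and lists were chosen with earlier results of these data known. All 10 members are named. Of each other list, the 3 genes with the most shared regions (ties by covered bases, at least 1 region) and up to 6 without a gene-end peak are named, except for genes not reported here. The comparison with peaks of like fold enrichment, within 10%, was chosen after the values were seen. Alternatives were stricter or equal-sized lists, reciprocal overlap, other flanks and gene-end distances, leaving out distal regions near other genes, and each library alone.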

Additional observations from a re-analysis of the deposited data

How the results depend on the processing

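Of 50 alternative values for 5 results, 38 were within 1.5 times the reported value. One of the 5, the median number of shared regions per member, was added as a summary after the data had been seen. Where each peak had to overlap 50% or more of the other, the members with a shared gene-end peak were 2 in place of 8 (22.0% of all protein-coding genes in place of 43.4%), the shared gene-end regions 3 in place of 12, the shared distal regions 11 in place of 18, and the median number of shared regions per member 1 in place of 3. *Dusp1*, *Dusp4*, *Dusp5*, *Spry2*, *Spry4*, and *Spred1* lost their shared gene-end peak. At each, the strongest replicate 2 gene-end peak lay inside a wider replicate 3 peak. In that order, the widths were 1453 in 3523 bp, 811 in 2804, 586 in 1614, 570 in 1645, 442 in 1172, and 604 in 2318. Peaks this narrow cannot fill 50% of the wider one. Why the widths differ was not tested. Within the gene bodies alone, 6 members had a shared distal region (19.4% of all protein-coding genes), with 10 such regions and a median of 1.5 shared regions per member. With 50 kb on each side there were 51 distal regions and a median of 6.5. With each library left out in turn, so that the peaks of the other were counted alone, distal regions ranged from 27 (without replicate 3) to 67 (without replicate 2), gene-end regions from 17 to 23, the median per member from 4 to 8, and members with a gene-end peak from 8 (43.4% of all protein-coding genes) to 10 (53.9%). Members with a distal region were 10 in each case, against 40.1% of all protein-coding genes without replicate 3 and 60.6% without replicate 2. Of 120 alternative values for single members, 85 were within 1.5 times the reported value and 35 were not. The q-value limit of 1e-05 left 24141 and 60232 peaks and moved none of the 5 results by more than that. No paired analysis was possible because the libraries form a single group and nothing was tested between groups. The unknown depth limits comparisons of the libraries.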

Other observations

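Between 10 and 50 kb from the 10 genes, another 33 shared regions were found. *Dusp6* and *Rasip1* had 7 each, *Dusp5* had 6, *Dusp1*, *Dusp4*, and *Spry4* had 3 each, *Spry1* had 2, *Spry2* and *Spred1* had 1 each, and *Spred2* had 0. All 7 at *Dusp6* and all 6 at *Dusp5* lay outside other protein-coding genes and more than 1 kb from their ends, whereas 3 of the 7 at *Rasip1* did. The strongest near *Dusp6*, chr10:99246590-99248294, lay 14.9 kb upstream and had fold enrichment of 32.1 in replicate 2, above the 30.5 of the promoter, and 35.5 in replicate 3, below the 46.4 of the promoter. Near *Dusp5*, a region 22.2 kb downstream, chr19:53564044-53564754, had values of 17.1 and 69.4. Near *Dusp1*, chr17:26464374-26466171, 39.4 kb away, had 19.6 in replicate 2, below the 21.5 of the *Dusp1* promoter region. In replicate 3 it had 58.0, above the 54.9 of the promoter region. Which gene these regions act on was not tested. The regions named were chosen after their values were seen.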
